A study of Brachypodium distachyon with 24 samples.

Results

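In leaves of F1 hybrids between the Brachypodium distachyon accessions Bd21 and Bd3-1, 161 genes gave more than 2 times as many counts from the Bd21 allele as from the Bd3-1 allele. These genes are called Bd21-high genes here. They were found among 3403 genes at which the alleles could be told apart, 4.73% of those, and the whole count table held 32439 genes. A gene was taken as allele-distinguishable when, in all 14 parental libraries, the accession's own allele had a count above 1 and the opposing allele held under 20% of the sum. A Bd21-high gene then had a mean CPM (the count scaled to a common library total) of the Bd21 allele, over the 10 F1 libraries, above 2 times that of the Bd3-1 allele. The genes were thus chosen by the F1 allele ratio, which is given as a description, whereas the parental difference and the differences between treatments were tested.

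RNA-seq was performed on leaves of 24 plants in 6 groups: 5 F1 hybrid plants under drought and 5 under control, 3 Bd21 plants under drought and 3 under control, and 3 Bd3-1 plants under drought and 5 under control. In the drought groups the soil was dried from day 33 after sowing over 6 days to 55% of field capacity, and control soil was kept at 85%. The F1 seeds came from Bd3-1 flowers that received Bd21 pollen, and the study describes no reciprocal cross. The Bd21 allele was thus the paternal one in every F1 plant. An effect of the parent of origin therefore cannot be told apart from a difference between the alleles themselves. The study describes the F1 dry-down as an experiment apart from that of the parents, and its account covers 3 plants for each parental group, so that the origin of the other 2 Bd3-1 control plants is not given in the sources used here. A difference between the generations therefore cannot be told apart from a difference between the experiments. The labels give each library its own replicate number but do not say that numbers pair plants. The p-values of tests on gene totals and of the exact test measure the spread between these plants. The edgeR and DESeq2 allele tests took both alleles of an F1 plant as separate samples, unless a plant block is named. Their p-values therefore do not account for alleles sharing a plant.

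An F1 hybrid holds 1 copy of each parental genome in the same nucleus. Both alleles of a gene meet the same transcription factors there, so a difference between them is usually read as a cis effect, carried by sequence at or near the gene itself, whereas a difference between the parents also holds trans effects, carried by diffusible regulators encoded elsewhere. In plants under drying soil the same comparison, made in each treatment, asks whether a cis difference depends on the environment. The Bd21-high genes are given by their Bradi identifiers, in which the digit before "g" is the chromosome. No annotation of these identifiers was used here (of 31335 RefSeq genes, 0 could be matched), and none of the 161 is among the 57 genes that the study's text names, so no role is given to them.

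Library totals ranged from 6905973 to 42354206 counts with a median of 21579369. The 2 shallowest libraries were both from Bd21, 1 of each treatment. Leaf and drought genes that the study annotates were present: the chlorophyll A-B binding protein gene Bradi4g31257 lay between 802 and 5079 normalized counts in the 24 libraries, and the LEA gene Bradi1g51770 had 1594 ± 267 normalized counts in drought F1 plants and 28.1 ± 36.8 in control F1 plants (SD, n = 5 each). In drought Bd21 and Bd3-1 plants the LEA gene had 1563 ± 571 and 708 ± 369 (SD, n = 3 each). Other drought genes had higher means in drought F1 plants than in drought Bd21 and Bd3-1 plants. They were the dehydrin genes Bradi1g37410 (2280 against 51.1 and 136) and Bradi3g43870 (1037 against 50.9 and 48.1), and Bradi4g24650 (35157 against 20045 and 10181). The cause was not tested. Over the distinguishable genes that are not Bd21-high, the Bd21 allele held between 49.8% and 50.3% of the summed counts in the drought F1 plants and between 49.5% and 50.1% in the control F1 plants. In the Bd21-high genes it held 72.4 ± 3.61% under drought and 71.96 ± 2.34% in control (SD, n = 5 each). In the parents the opposing allele was nearly absent from the summed counts of the Bd21-high genes: the Bd21 columns held at least 99.7% of them in every Bd21 plant and at most 1.01% in every Bd3-1 plant. Per gene, the highest share of the opposing allele in any library had a median of 0%. It reached 18.1% at single genes in both accessions. These are bulk leaves, in which fewer cells of a type and less RNA per cell cannot be told apart.

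The F1 log2 ratio of the Bd21 to the Bd3-1 allele had a median of 1.46 over the 161 genes, with quartiles of 1.15 and 1.98, and a median of 0.04 over all 3403 distinguishable genes. Most Bd21-high genes therefore lay close to the threshold: 38 were above 4-fold, 8 above 8-fold and 3 above 16-fold. The opposite tail was smaller, with 88 genes in which the Bd3-1 allele was more than 2-fold higher. The Bd21 allele had the higher count in all 10 F1 plants at 74 genes, in 9 plants at 43, in 8 plants at 21, and in fewer than 8 plants at 23, the lowest being 5 plants. The Bd3-1 allele had a count of 0 in at least 1 plant at 92 genes, and in at most 6 plants at any gene. Bd21-high genes were more frequent at low counts. They were 89 of the 851 distinguishable genes in the lowest quartile of F1 count (10.5%), and 8 of the 851 in the highest quartile (0.94%). The Bd3-1-high genes were spread in the same way, 47 (5.52%) in the lowest quartile and 8 (0.94%) in the highest. The median total count per F1 library was 268 for the Bd21-high genes and 690 for all distinguishable genes, and the part of counting noise in their ratios was not tested.

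The highest ratio was that of Bradi1g73660, 41.6-fold. Its Bd21 allele had 918, 753, 639, 1149 and 793 normalized counts in the 5 drought F1 plants, and 655, 574, 626, 702 and 731 in the 5 control F1 plants. Its Bd3-1 allele had 61.7, 19.4, 23.5, 0 and 0 in the drought plants, and 0, 41.8, 11.6, 2.97 and 14.7 in the control plants. The alleles thus never overlapped, and the Bd3-1 allele was not detected in 3 of the 10 plants. A normalized count is the count divided by the library's size and its TMM (trimmed mean of M-values) factor, scaled to the average library. Over all 10 plants the Bd21 allele gave 97.1% of the gene's counts (95% Wilson interval 96.7 to 97.5%, which covers counting error only). Bradi4g44540 followed with a 33.5-fold ratio. Its Bd21 allele lay between 167 and 384 normalized counts in every F1 plant and its Bd3-1 allele between 0 and 20.3, with 4 plants at 0. Bradi4g21710, at 10.5-fold, had the highest ratio among the genes whose Bd3-1 allele was counted in every plant. Its Bd21 allele had 1609, 1576, 1058, 1657 and 1304 normalized counts in drought F1 plants and 678, 1007, 1228, 1043 and 892 in control F1 plants. Its Bd3-1 allele had 159, 102, 116, 147 and 48.8 under drought and 132, 112, 149, 113 and 108 in control, again with no overlap between the alleles. Bradi4g05734 (11.9-fold), Bradi1g32960 (9.50-fold), Bradi4g43450 (8.60-fold), Bradi3g05296 and Bradi4g06670 completed the 8 genes above 8-fold, named after their values were seen.

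At the threshold, Bradi3g03882 had a ratio of 2.0011 and was taken, whereas Bradi2g06060 had a ratio of 1.9978 and was left out. In Bradi3g03882 the log2 ratio per plant, with 1 count added to each allele, was -0.25, 1.82, 2.97, -1.74 and 5.09 under drought and 1.01, 3.39, 1.53, 0.32 and -0.05 in control, so the Bd21 allele was the higher one in 7 of 10 plants. In Bradi2g06060 it was 0.22, 0.56, 0.77, 1.29 and 2.48 under drought and 0.58, 1.495, 0.16, 0.63 and 0.50 in control. The gene left outside thus had the Bd21 allele higher in every plant and the gene taken did not.

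Among the Bd21-high genes a few were abundant. Bradi1g42670 had the highest total, 25484 ± 18973 normalized counts in drought F1 plants and 86721 ± 50829 in control F1 plants (SD, n = 5 each), and made up between 11.8% and 62.9% of all counts on the 161 genes in an F1 library. Its ratio was 2.04-fold, and the Bd21 allele was above the other in each of the 10 plants. Bradi1g45760 came next, with 4289 ± 1832 and 14311 ± 6738 normalized counts in the drought and the control F1 plants (SD, n = 5 each), and a ratio of 3.40-fold. Because 1 gene weighs so much in the sums, the comparisons that follow are given per gene.

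The parents were compared to see whether the allele that was higher in the F1 also came from the accession with the higher total expression. It did at 84 of the 161 Bd21-high genes (52.2%), which were higher in Bd21 at an adjusted p under 0.05 (edgeR quasi-likelihood test, Benjamini-Hochberg over 22629 genes), against 618 of all 22629 genes (2.73%) and 191 of the 3403 distinguishable genes (5.61%). None was higher in Bd3-1, where 457 of all genes (2.02%) and 139 of the distinguishable genes (4.08%) were called. At an unadjusted p under 0.05, 116 were higher in Bd21 (6.96% of all genes) and 0 in Bd3-1 (8.58% of all genes), and DESeq2 called 94 and 0. The median parental log2 difference, Bd21 over Bd3-1, was 1.09 over the Bd21-high genes, -0.02 over the distinguishable genes and -0.05 over all genes tested. It was above 0 at 148 Bd21-high genes (91.9%, against 46.7% of the distinguishable genes) and above 1 at 87 (54.0%, against 4.61%). At 57 genes (35.4%) every Bd21 plant lay above every Bd3-1 plant, which held for 1.57% of all genes and 3.06% of the distinguishable genes. Over the 161 genes the F1 log2 ratio and the parental difference had a Pearson correlation of 0.51, against 0.65 over the 3403 distinguishable genes. Both values are descriptions across genes that share the same libraries, and the 161 genes were chosen by the F1 ratio.

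**Figure D1:**
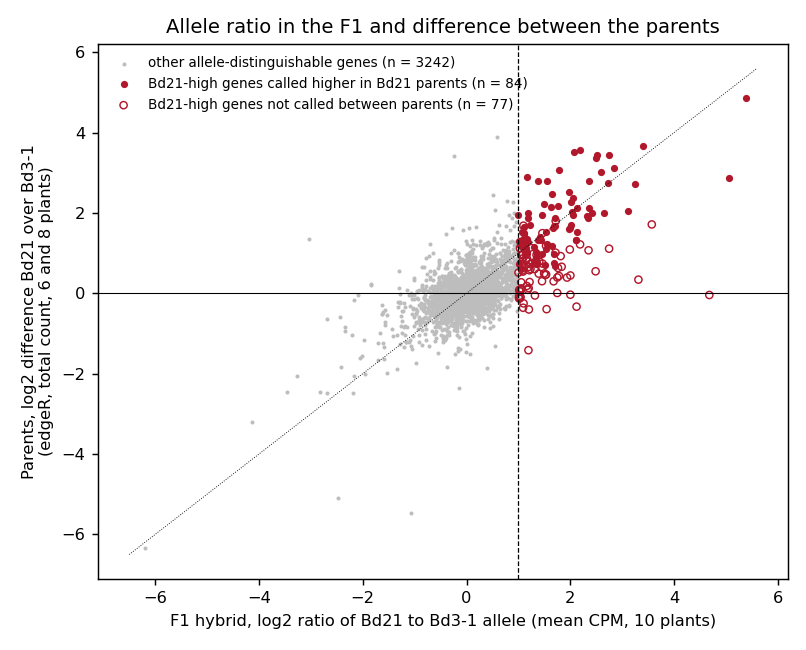
Log2 ratio of the Bd21 to the Bd3-1 allele in the F1 hybrid (x axis, ratio of mean CPM over 10 plants) against the parental log2 difference of Bd21 over Bd3-1 (y axis, edgeR on total counts, 6 and 8 plants). Each point is 1 of the 3403 distinguishable genes, filled red for the 84 Bd21-high genes called higher in Bd21 parents, open for the 77 not called, and grey for the others; the dashed line is the 2-fold threshold and the dotted line marks equal values. All 84 filled red points lie above 0 on the y axis, and the 13 Bd21-high genes at or below 0 are open.

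Bradi1g73660 also had the largest parental difference of the 161. Its total was 1567, 792 and 1382 normalized counts in drought Bd21 plants and 1548, 1184 and 1136 in control Bd21 plants, against 58.7, 35.6 and 20.9 in drought Bd3-1 plants and 40.2, 53.0, 79.8, 27.3 and 47.3 in control Bd3-1 plants. Every Bd21 plant was far above every Bd3-1 plant, and the log2 difference was 4.85 ± 0.25 (SE) with an adjusted p of 5.7e-13 (edgeR). Bradi4g21710 had 3217, 3015 and 2143 normalized counts in drought Bd21 plants and 2611, 2441 and 2594 in control Bd21 plants. In Bd3-1 it had 237, 168 and 210.2 under drought and 176, 293, 215, 233 and 167 in control. Its parental log2 difference was 3.66 ± 0.17 (SE, edgeR adjusted p = 5.5e-14), beside an F1 log2 ratio of 3.40. Bradi4g44540, in contrast, had a parental log2 difference of 2.88 ± 0.32 (SE, edgeR adjusted p = 7.6e-07) and a larger F1 log2 ratio of 5.07. After Bradi4g21710, the order by parental difference went on with Bradi3g03874, Bradi4g10207, Bradi5g01462, Bradi3g01460 and Bradi4g21724, the last 3 named after their values were seen, all between 3.36 and 3.57 on the log2 scale.

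**Figure D2:**
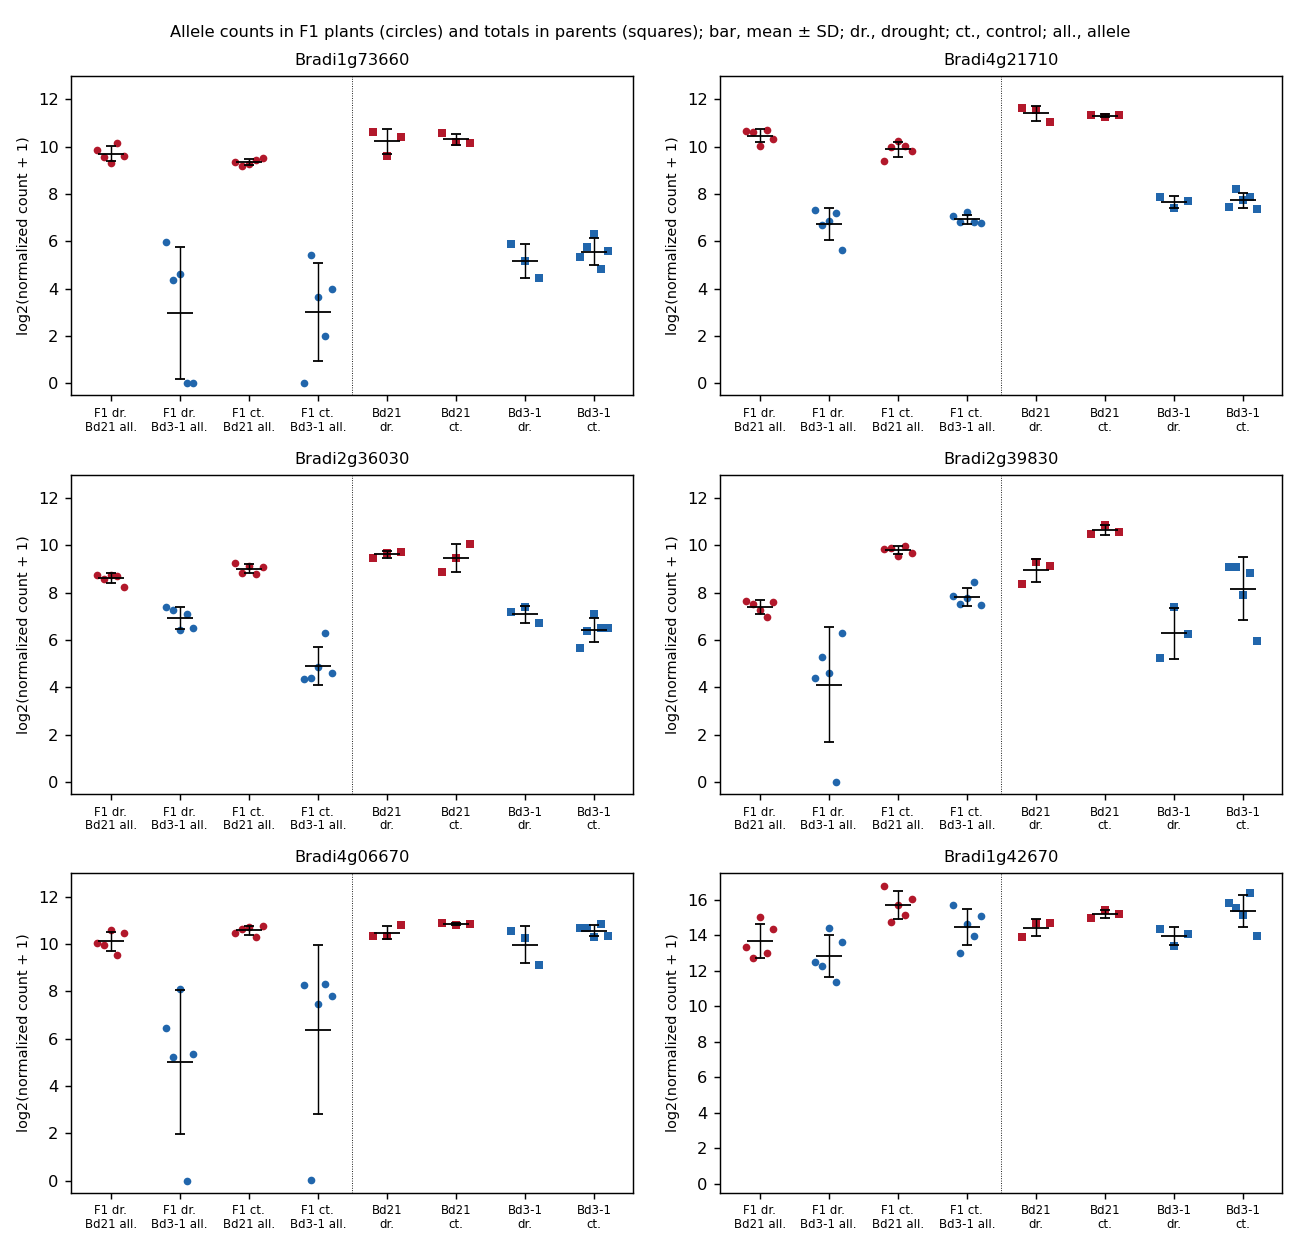
Normalized counts, as log2 of the count plus 1, of 6 Bd21-high genes. Circles are F1 plants, split into the Bd21 allele (red) and the Bd3-1 allele (blue) under drought and control, and squares are the totals of Bd21 (red) and Bd3-1 (blue) plants; bars give the mean ± SD of the group. In Bradi1g73660 and Bradi4g21710 the parents are apart like the alleles, and in Bradi4g06670 and Bradi1g42670 the parents overlap while the Bd21 allele is the higher one within each F1 plant.

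The parental difference was also taken in each treatment. Under drought 47 Bd21-high genes (29.2%) were higher in Bd21, against 1.19% of all genes and 2.06% of the distinguishable genes, and in control 61 (37.9%), against 1.68% and 2.94%. Both treatments shared 44 of these genes, 3 were called under drought alone and 17 in control alone, and 0 were higher in Bd3-1 in either (background 0.672% under drought and 0.835% in control). The drought comparison had 3 against 3 plants and the control comparison 3 against 5, so the counts of the treatments do not rest on equal plant numbers. The drought count rested partly on 1 plant, since 30 genes were called without Bd3-1 drought replicate 1. The median log2 difference was 1.02 under drought and 1.15 in control, and it was above 0 in both treatments at 138 genes. Bradi3g03874 had the largest difference under drought after Bradi1g73660, with 638, 1509 and 708 normalized counts in drought Bd21 plants against 62.0, 53.5 and 23.1 in drought Bd3-1 plants, a log2 difference of 4.34 ± 0.41 (SE, edgeR adjusted p = 8.7e-08). In control it was 2.81 ± 0.33 (SE). Bradi4g10207 had the largest in control after Bradi1g73660, with 486, 278 and 384 normalized counts in control Bd21 plants against 35.8, 12.8, 26.2, 19.3 and 6.09 in control Bd3-1 plants, a log2 difference of 4.25 ± 0.44 (SE, edgeR adjusted p = 2.8e-07). Under drought it was 2.76 ± 0.50 (SE). A test of the parental G × E (genotype by environment) interaction, the drought response of Bd21 minus that of Bd3-1, called none of the Bd21-high genes at an adjusted p under 0.1 in edgeR and none in DESeq2, and 8 (4.97%) had an unadjusted p under 0.05 (3.41% of all genes). No gene of the 22629 was called either (0%).

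The other 77 Bd21-high genes were not called between the parents, and 32 of them had an unadjusted p under 0.05. Their median parental log2 difference was 0.57 and their median F1 log2 ratio 1.23, against 1.67 and 1.64 in the 84 genes called. Their median total count per F1 library was also lower, 167 against 344. The parental difference was at or below 0 at 13 genes, none of them called. It ran furthest the other way in Bradi4g26460, a gene of low count. Its Bd21 allele had 4.25, 9.19, 8.19, 14.02 and 0 normalized counts in drought F1 plants and 39.7, 33.0, 3.90, 16.3 and 7.61 in control F1 plants, and its Bd3-1 allele was at 0 in 6 of the 10. The Bd21 parents had 23.4, 34.9 and 52.0 under drought and 84.7, 21.9 and 45.8 in control, against 50.1, 210.4 and 83.7 and 9.82, 135, 79.8, 19.7 and 329.8 in the Bd3-1 parents. These ranges overlapped, and the log2 difference was -1.42 ± 0.75 (SE, edgeR adjusted p = 0.381). Bradi1g31816, the other gene named for a parental difference the other way, had the Bd21 allele higher in all 10 F1 plants (2.30-fold) and a parental log2 difference of -0.40 ± 0.35 (SE, edgeR adjusted p = 0.667).

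Some Bd21-high genes, with F1 ratios near or far above 2-fold, had parental totals that overlapped. In Bradi4g06670, named after its values were seen, the Bd21 allele had 1069.7, 994, 1538, 755 and 1399 normalized counts in drought F1 plants and 1428, 1608, 1672, 1259 and 1766 in control F1 plants. The Bd3-1 allele had 86.97, 37.0, 271, 0 and 40.0 under drought and 312, 0.0273, 178, 317 and 225 in control. The Bd21 allele was above the Bd3-1 allele in every plant, and the Bd3-1 allele was near 0 in 1 plant of each treatment. The parental totals overlapped, at 1654 ± 288 normalized counts in Bd21 (SD, n = 6) and 1367 ± 392 in Bd3-1 (SD, n = 8), with a log2 difference of 0.34 ± 0.19 (SE, edgeR adjusted p = 0.421), beside a 9.94-fold F1 ratio. Bradi1g42670, the most abundant of the Bd21-high genes, had a parental log2 difference of 0.05 ± 0.39 (SE, edgeR adjusted p = 0.981), and Bradi1g45760 one of 0.63 ± 0.28 (SE, edgeR adjusted p = 0.253). In Bradi3g05296, also named after its values were seen, the ratio of 25.6-fold came with unstable counts. Its Bd21 allele had 100.3, 87.3, 247, 369.9 and 8.78 normalized counts in drought F1 plants and 39.3, 0, 80.2, 86.4 and 78.2 in control F1 plants, its Bd3-1 allele was at 0 in 5 plants, and in 1 drought plant both alleles had the same estimate of 8.78. Bd3-1 control plants ranged from 32.8 to 2775 normalized counts in this gene. How many reads cross a distinguishing variant at each gene was not used here, so a shift of a few such reads cannot be told apart from a shift of the allele.

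The F1 total lay between the parental means at 116 Bd21-high genes (72.05%, against 37.8% of the other distinguishable genes), below both at 25 (15.5%, against 27.0%) and above both at 20. The last count has no share of other genes beside it. These shares depend on how far apart the parental means are. The median parental log2 difference was 1.09 in the Bd21-high genes and -0.04 in the other distinguishable genes, so the shares are a description with no test. The parental minus the F1 log2 difference, which the study's model reads as trans, had a median of -0.41 over the Bd21-high genes and was below 0 at 115 of them. It holds the F1 ratio by which the genes were chosen and is given with no test. The median over all distinguishable genes was -0.05. Among the 84 genes called between parents, Bradi4g44540 had the lowest value, -2.23 ± 0.73 (SE). Bradi3g03874 lay on the other side, at 1.33 ± 0.51 (SE), with a parental difference above its F1 ratio.

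The allele ratio was then compared between treatments. The mean of the Bd21 allele was the higher one in both treatments at 160 of the 161 genes, and it was over 2-fold in both at 96, under drought alone at 35 and in control alone at 30. The ratio was the larger one under drought at 84 genes. As the whole set of F1 plants chose these genes, the 2-fold rule was also applied to the plants of 1 treatment and the result tested in the other. Of 227 distinguishable genes over 2-fold in the 5 control plants, 192 (84.6%) had the Bd21 allele higher in the 5 drought plants, against 53% of all distinguishable genes, and 96 (42.3%) were over 2-fold there too, against 6.58%. In a test of the drought plants (edgeR, allele and generation in drought libraries, adjusted p under 0.1), 55 of the 227 (24.2%) had the Bd21 allele called higher, against 3.32% of all distinguishable genes, and 0 had the Bd3-1 allele called higher (1.65%). At an unadjusted p under 0.1 these counts were 110 (12.8%) and 2 (9.52%), and DESeq2 called 74 and 0. The count of 55 fell to 30 in the F1 libraries alone and to 29 with the plant as a block, and to 35, 30 and 36 without Hybrid drought replicate 1, 2 or 3. In the reverse direction, of 224 genes over 2-fold in the 5 drought plants, 193 (86.2%) had the Bd21 allele higher in the 5 control plants, against 53.9% of all distinguishable genes, and 96 (42.9%) were over 2-fold there too, against 6.67%. The test of the control plants called 67 of them (29.9%, against 5.61%) in favour of the Bd21 allele and 0 in favour of that of Bd3-1 (3.94%). At an unadjusted p under 0.1 the counts were 130 (16.5%) and 3 (11.6%), and DESeq2 called 83 and 0. The count of 67 fell to 47 in the F1 libraries alone and to 57 without Hybrid control replicate 3. The F1 plants of the choice and of the test were different ones.

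**Figure D3:**
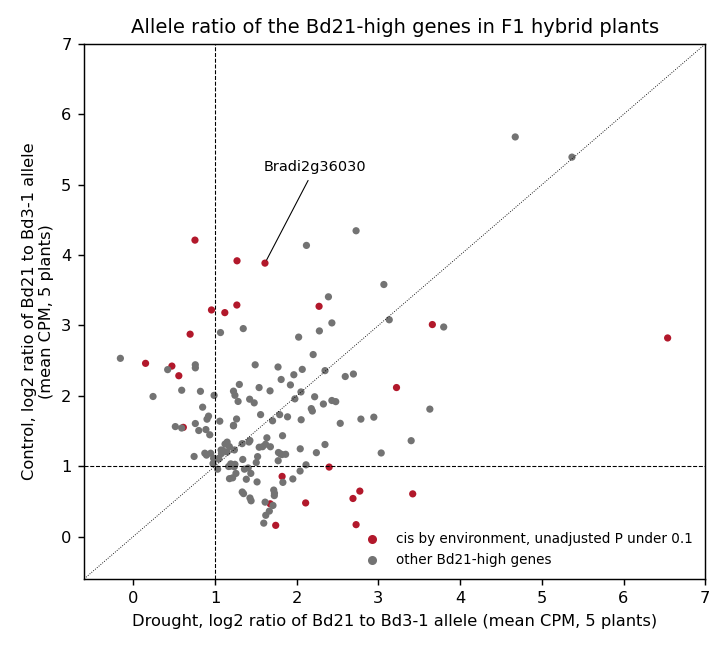
Log2 ratio of the Bd21 to the Bd3-1 allele of the 161 Bd21-high genes in the 5 drought F1 plants (x axis) and the 5 control F1 plants (y axis), each a ratio of mean CPM. Red points had an unadjusted P under 0.1 for a change of the ratio with treatment (24 genes), dashed lines mark 2-fold and the dotted line equal ratios; Bradi2g36030 lies above that line, with the larger ratio in control.

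A change of the allele ratio with treatment, the cis by environment term, was tested in the model with allele, generation and treatment. The study defines this term, but its methods also report separate tests per condition because of limited power. They state that the interaction was not open to a direct test that way. At the study's threshold of an unadjusted P under 0.1, 24 Bd21-high genes (14.9%) passed, against 417 of the 3403 distinguishable genes (12.3%). The ratio was larger under drought at 12 of them (6.38% of the distinguishable genes) and smaller at 12 (5.88%). The share was close to that of all distinguishable genes. At an adjusted p under 0.1, 1 of the 3403 genes passed (0.0294%), and it was Bd21-high. This count was not stable: DESeq2 called 5 of the 3403, 1 of them Bd21-high, and edgeR called 5 (1 Bd21-high) without Hybrid drought replicate 4, 4 (2 Bd21-high) without Hybrid control replicate 2, 2 (1 Bd21-high) without Hybrid control replicate 4, and 0 in the F1 libraries alone and without some other F1 libraries, as given with the gene's values. The gene called over all libraries was Bradi2g36030, in which the Bd21 allele had 426, 384, 429, 422 and 303 normalized counts in drought F1 plants, against 616, 452, 553, 444 and 546 in control F1 plants. Its Bd3-1 allele had 170.0, 154, 84.7, 136 and 89.5 in drought plants, against 19.5, 19.8, 28.02, 77.4 and 23.5 in control plants. All 5 drought plants had more of the Bd3-1 allele than any control plant, and less of the Bd21 allele. The ratio, as log2 with 1 count added, was 1.66 ± 0.42 in drought plants and 4.12 ± 0.94 in control plants (SD, n = 5 each). The drought minus control difference of the fit was -2.33 ± 0.45 (SE), with an adjusted p of 0.0428 (edgeR) and of 0.00024 in DESeq2. The adjusted p was 0.272 in the F1 libraries alone and 0.595 with the plant as a block. It was between 0.143 and 0.289 without Hybrid drought replicate 1 or 2 or Hybrid control replicate 1, 3 or 5, so the call was lost without any 1 of these, while the difference stayed between -2.94 and -2.11. The total of the gene in the F1 differed between treatments by -0.09 ± 0.22 (SE) on the log2 scale (edgeR adjusted p = 0.85). In the parents this gene was higher in Bd21 in both treatments, by 2.50 ± 0.30 (SE) on the log2 scale under drought and by 3.07 ± 0.26 (SE) in control.

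Bradi4g03864 was the second gene named for a smaller ratio under drought. Its Bd21 allele had 282, 459.8, 492.5, 281 and 446 normalized counts in drought F1 plants, against 237, 121, 264, 184 and 248 in control F1 plants. Its Bd3-1 allele had 76.07, 149.5, 142, 146 and 296, against 22.2, 0, 27.97, 8.62 and 53.9. Every drought plant was above every control plant in both alleles, and the total rose with drought by 1.25 ± 0.32 (SE) on the log2 scale (edgeR adjusted p = 0.01). The ratio differed by -1.92 ± 0.74 (SE) between the treatments, with an unadjusted p of 0.0143 and an adjusted p of 0.664. An exact two-sided permutation test of the ratio per plant was run for the genes named by the rule. With 5 against 5 plants it can give no p below 0.0079. Its result is given only for genes not named for this term, since Bradi2g36030 and Bradi4g03864 were chosen by the same difference. Of the 15 other genes named by the rule, Bradi4g21710 had an exact p of 0.0159, with a log2 ratio of 3.72 ± 0.61 under drought and 2.95 ± 0.34 in control (SD, n = 5 each), and an adjusted p of 0.694 over all distinguishable genes in edgeR. Bradi4g10207 had wider values: its Bd21 allele had 156, 207, 206, 85.3 and 154 normalized counts in drought F1 plants, against 238, 232, 215, 150.2 and 208 in control F1 plants, and its Bd3-1 allele had 32.0, 44.0, 6.70, 113 and 128, against 1.74, 0, 23.4, 12.4 and 32.0. The Bd3-1 allele ranges overlapped, and the exact p was 0.0873. The other 13 had an exact p of at least 0.0794.

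Drought itself changed the total of 23 Bd21-high genes in the F1 (14.3%) at an adjusted p under 0.05 in edgeR, against 3370 of all 22629 genes (14.9%) and 760 of the 3403 distinguishable genes (22.3%). Of the 23, 12 rose, by 0.51 to 2.82 on the log2 scale (7.58% of all genes rose), and 11 fell, by 0.70 to 2.48 (7.31% of all genes fell). In the parents none was called at an adjusted p under 0.05: in Bd21 0 genes (0.0972% of all genes), with 14 at an unadjusted p under 0.05 (8.75% of all genes) and 2 in DESeq2, and in Bd3-1 0 genes (0.72%), with 22 at an unadjusted p under 0.05 (12.4%) and 7 in DESeq2. Both parents' fitted changes had the sign of the F1 change at 19 of the 23 genes (82.6%), against 83.9% of all 3370 genes. Both allele means differed in the direction of the total at 21 of the 23, and at the other 2 the Bd3-1 allele did not. The total is the sum of both alleles, mostly that of Bd21, so the direction of the Bd21 allele was nearly set in advance. These counts are a description, with no share of other genes beside them. Of the 23, 18 changed by more than 2-fold, a count also given without the share of other genes. Higher in Bd21 parents were 11 of the 23, as were 84 of all 161 Bd21-high genes (52.2%).

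Bradi2g59110 rose most, with 316, 542, 180.3, 747 and 127 normalized counts in drought F1 plants against 15.3, 40.8, 59.8, 122 and 34.8 in control F1 plants. The log2 change was 2.82 ± 0.62 (SE, edgeR adjusted p = 0.00366), and its allele ratio was uneven, since the Bd21 allele was above the Bd3-1 allele in only 7 of the 10 plants. Bradi3g37595 had 129.99, 289, 111, 495 and 205 in drought plants against 57.9, 54.4, 52.0, 87.14 and 55.4 in control plants, a log2 change of 2.00 ± 0.38 (SE, edgeR adjusted p = 0.00118). Neither gene's groups overlapped. The parental values on the log2 scale were 0.96 in Bd21 and 0.71 in Bd3-1 for Bradi2g59110, and 1.12 in Bd21 and 1.43 in Bd3-1 for Bradi3g37595.

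Bradi2g39830 fell most. Its Bd21 allele had 198, 181, 153, 125 and 195 normalized counts in drought F1 plants, against 929, 949, 749, 1003 and 832 in control F1 plants, and its Bd3-1 allele had 20.0, 37.9, 23.3, 0 and 78.09, against 232, 184, 217, 352 and 179. Both alleles were lower in every drought plant than in any control plant. The total changed by -2.48 ± 0.42 (SE) on the log2 scale (edgeR adjusted p = 0.000474), and the parental values were -1.66 in Bd21 and -1.97 in Bd3-1. It was also higher in Bd21 than in Bd3-1 parents, by 2.28 ± 0.35 (SE) on the log2 scale (edgeR adjusted p = 0.000102). Bradi3g33040 had 385, 386, 873, 57.8 and 428 normalized counts in drought F1 plants against 1472, 966, 1589, 1839 and 1685 in control F1 plants, a log2 change of -1.82 ± 0.43 (SE, edgeR adjusted p = 0.0056). The abundant Bradi1g42670 had 16226, 11802, 55366, 10833 and 33194 normalized counts in drought F1 plants against 165658, 35842, 78137, 51969.7 and 101999 in control F1 plants, with overlapping groups. Both Bradi1g42670 and Bradi1g45760 fell, by 1.77 and 1.74 on the log2 scale (edgeR adjusted p = 0.0116 and 0.00127).

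**Figure D4:**
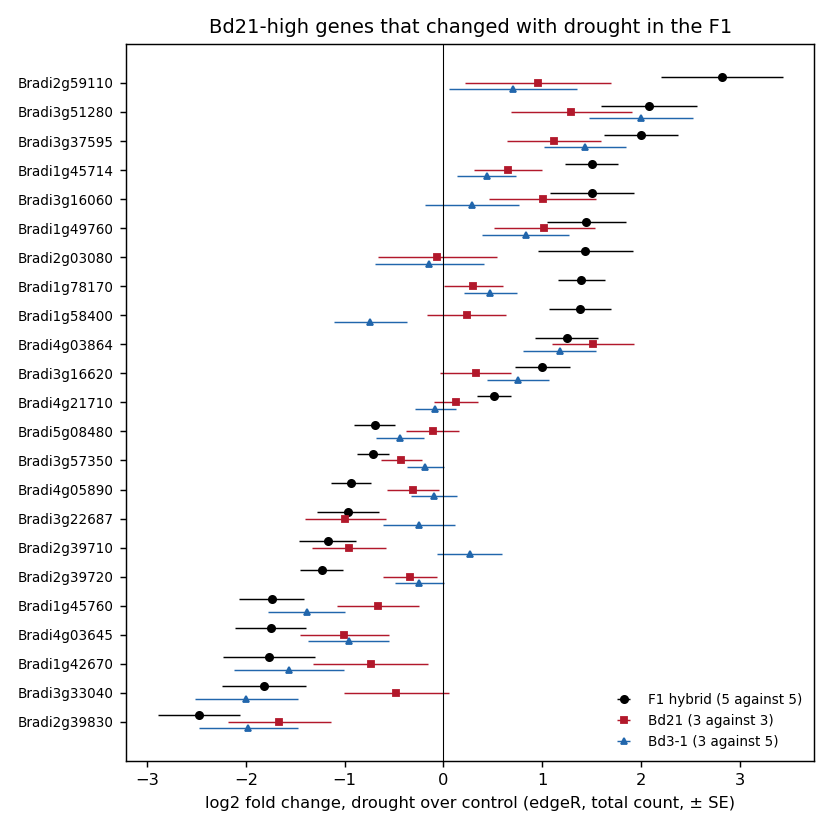
Log2 fold change of drought over control (x axis, ± SE, edgeR on total counts) of the 23 Bd21-high genes that changed with drought in the F1 hybrid (black circles, 5 against 5 plants), with the same genes in Bd21 (red squares, 3 against 3) and in Bd3-1 (blue triangles, 3 against 5). The values run from -2.48 in Bradi2g39830 to 2.82 in Bradi2g59110 in the F1, and both parental points lie on the F1 side of 0 at 19 genes.

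The share of Bd21-high genes was highest on chromosome 4. They made up 7.44% of its distinguishable genes (45 of 605), 4.82% of chromosome 3 (43 of 892), 4.02% of chromosome 1 (34 of 845), 3.71% of chromosome 5 (15 of 404) and 3.66% of chromosome 2 (24 of 655). The Bd3-1-high genes also had their largest share on chromosome 4 (4.13%, 25 genes). The distinguishable genes of each chromosome were cut into full blocks of 20 in the order of the identifiers, 168 blocks in all. Genes that did not fill a block were left out. Of the blocks, 72 held no Bd21-high gene, 56 held 1 and 7 held at least 4, with 31 genes in all and 5 at most in a block. These 7 blocks held 5 Bd3-1-high genes. They ran from Bradi2g36245 to Bradi2g39740 (2 blocks, 4 and 5 genes), from Bradi3g01360 to Bradi3g02270 (4), from Bradi3g15457 to Bradi3g16140 (4), from Bradi4g05720 to Bradi4g06100 (4) and from Bradi4g09237 to Bradi4g11133 (2 blocks of 5). The blocks are a description in identifier order, with no coordinates and no test.

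**Figure D5:**
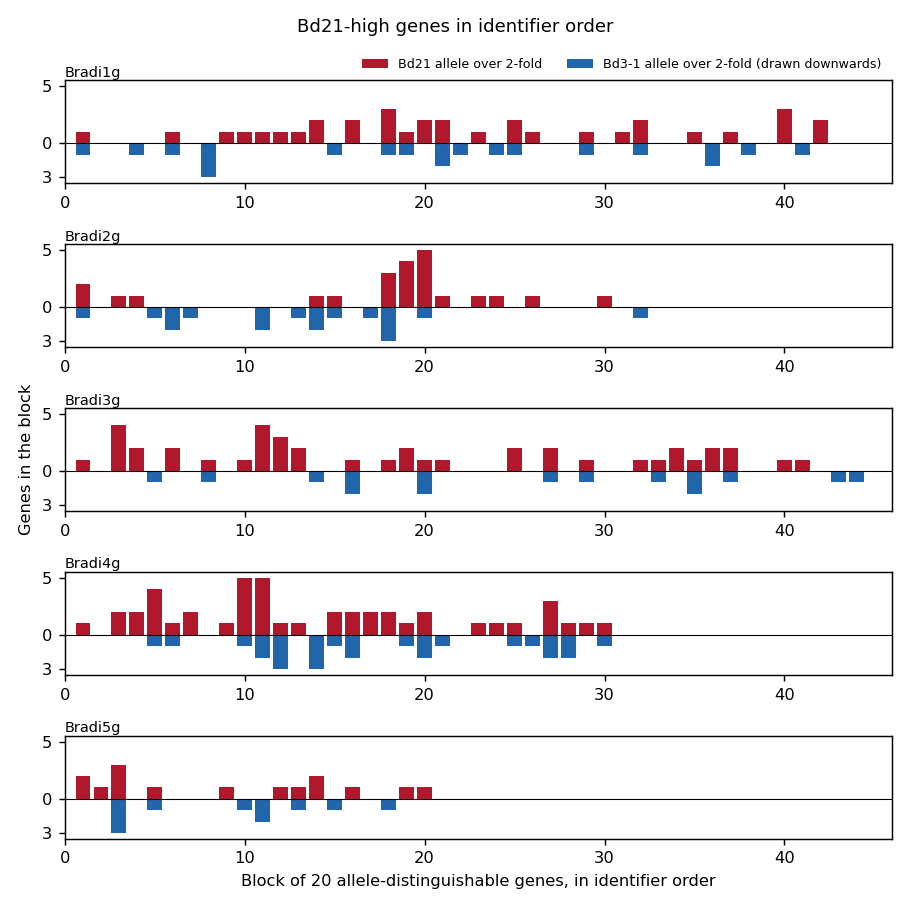
Number of Bd21-high genes (red, upwards) and of genes with the Bd3-1 allele over 2-fold higher (blue, downwards) in successive full blocks of 20 distinguishable genes (x axis), in the order of the identifiers of chromosomes 1 to 5. Genes that did not fill a block are not drawn. The tallest red bars hold 5 genes, on chromosomes 2 and 4.

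Next to each other among the distinguishable genes stood 8 pairs of Bd21-high genes, 16 genes in all. A Bd21-high gene was followed by another in 4.97% of cases, close to the 4.73% that Bd21-high genes made up of all distinguishable genes. In 2 pairs no other gene of the table lay between. In the first of these 2, Bradi2g39710 and Bradi2g39720, named like all pairs after their values were seen, the F1 log2 ratios were 1.18 and 1.68, and both totals fell with drought in the F1, by 1.17 and 1.23 on the log2 scale (edgeR adjusted p = 0.00796 and 0.000626). The second pair, Bradi3g02200 and Bradi3g02210, had F1 log2 ratios of 1.21 and 1.39. Among the others, Bradi4g21710 and Bradi4g21724 had F1 log2 ratios of 3.40 and 2.51 and parental log2 differences of 3.66 and 3.36, and Bradi4g10171 and Bradi4g10207 had F1 log2 ratios of 1.17 and 2.08 and parental log2 differences of 2.89 and 3.51. The members of a pair may share reads where their sequences are alike, which was not tested.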

How the data were processed

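Stranded poly(A) RNA-seq libraries of 24 leaf samples were measured. The authors deposited estimated counts per gene and allele: per the study's methods and the submitters' processing notes, reads were trimmed (Trimmomatic 0.38, cutadapt 3.7), a Bd3-1 version of the Bd21 v3.2 genome was built from variants (STAR 2.6.1b, GATK 4.2.5.0, g2gtools), and reads were aligned to both transcriptomes with Bowtie 1.2.2 and apportioned between alleles with emase. Reads that match both alleles are shared out by that model, so an allele count need not be whole, and a value of 0 or a tie is an estimate.

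The total of a gene was the sum of its 2 allele columns, rounded to whole numbers. Totals were fitted over the 24 libraries and 6 groups in edgeR 4.0.16 (R 4.3.3, quasi-likelihood F-test, TMM) for the 22629 genes that had counts in over 10 libraries, with Benjamini-Hochberg thresholds of 0.05 (0.1 for G × E and cis). All 161 Bd21-high genes passed that filter. Alleles were fitted in 34 columns, the own allele of each parent and both alleles of each F1 plant, over the 3403 distinguishable genes, with allele, generation and treatment as in the study. The main allele fits had no plant block. A cis difference is the log2 difference between F1 alleles. The F1 ratio of CPM used the sum of both allele columns as library total. Tables were handled in Python 3.11.15 with pandas 2.3.3, numpy 2.4.6 and scipy 1.17.1, and plotted with matplotlib 3.10.9. The fits were tested on simulated counts.

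Genes were named by a rule: in each test, the 2 with the largest change in each direction among those called whose groups did not overlap and whose normalized counts averaged 10 or more; the 2 with the highest total and the 2 with the highest F1 ratio; the genes next to the threshold; and the 2 whose parental difference ran furthest the other way. Genes outside the rule are marked as such. The Bd21-high genes and the lists were chosen with earlier results of these data known. Alternatives were DESeq2 1.42.0, other normalization factors, filters, thresholds and pseudocounts, the groups compared alone, replicate or plant blocks, and leaving out each library.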

Additional observations from a re-analysis of the deposited data

Results flagged for a closer look

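In 7 of 44 groups of plants examined, 1 plant stood apart from the others of its group by Dixon's criterion, which chance alone meets in about 1 in 20 groups. In 6 of these it was the log2 allele ratio of a single gene. For Bradi4g21710, Hybrid control replicate 1 had 2.35 and the nearest other control plant 3.03. In Bradi2g36030 the low plant was Hybrid control replicate 4, at 2.50 with the nearest other at 4.24. Hybrid control replicate 2 was the high plant at 2 genes, with 1.75 in Bradi1g42670 (nearest other 1.18) and 10.65 in Bradi4g06670 (nearest other 3.22). Hybrid drought replicate 5 stood apart at 2 genes as well, with 6.04 in Bradi2g59110 (nearest other 1.93) and 0 in Bradi3g05296 (nearest other 6.58), where both alleles had the same estimate. The last value was a sum over genes: the Bd21 allele held 76.08% of the counts on the Bd21-high genes in Hybrid control replicate 2, the highest of the 5 control plants.

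The drought and control F1 plants differed in the allele ratio of Bradi2g36030 by -2.33 on the log2 scale in the cis by environment test, the 1 gene past an adjusted p under 0.1 over all libraries.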

How the results depend on the processing

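The number of Bd21-high genes was 570 with the allele criterion on the mean of each accession, 404 at 1.5-fold and 64 at 3-fold, and 152 to 193 with 1 library left out. Of the 161, the parental counts were 94 over both treatments, 63 under drought and 75 in control in DESeq2, and the drought count ran between 30 and 53 with 1 library left out, lowest without Bd3-1 drought replicate 1. Drought within Bd21 gave 2 genes in DESeq2 and 1 in a fit of only the groups compared, and within Bd3-1 7 in DESeq2 and between 0 and 2 with 1 library left out. The cis count under drought was 30 in the F1 libraries alone, 29 with the plant as block, and 30 to 62 with 1 library left out. The cis count in control was 47 in the F1 libraries alone and 57 to 74 with 1 library left out. The cis by environment count was 17 in the F1 libraries alone and 30 in DESeq2. The causes were not tested. Except for the adjusted cis by environment count, counts under an alternative are given here and elsewhere without the share of all genes in that setting. They show only how a count moved. The cis by environment count at an adjusted p under 0.1 was 1 of 3403 genes, and ran from 0 to 5 over the alternatives. Among values not past their test, the sign changed with 1 library left out for the allele ratio between treatments of Bradi1g73660 (0.04, and -0.75 at the lowest, also -0.10 with a pseudocount of 5), Bradi3g03874 (0.10, and -0.14) and Bradi3g03882 (0.34, and -0.54), and for the parental difference of Bradi1g42670 (0.05, and -0.06).

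The labels do not say whether replicate numbers pair the plants. Same-numbered plants' deviations correlated between -0.15 and 0.26, which does not settle it. With the replicate number as a block, 76 Bd21-high genes were called between parents, 40 under drought and 53 in control, 0 for G × E, 20 for drought in the F1 and 0 in either parent. For the exact test of the allele ratio, 5 genes passed 0.05 with 1 particular plant left out and not with all plants: Bradi4g10207, Bradi2g59110, Bradi2g39830, Bradi3g33040 and Bradi1g42670.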
